A study of Mus musculus with 12 samples.

Results

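Rpph1, Rprl3, Rmrp, Rn7sk, Gm24447, Rn7s1 and Rn7s2 are 7 genes for small structural RNAs of RNase P, RNase MRP, the 7SK particle and the signal recognition particle. They were found by gene name among the 53465 genes of the expression table. They were chosen by name at a time when their counts and fold changes in these same libraries were known, so their levels, differences and counts of calls are given as a description, with no p printed, and support nothing about them beyond these libraries. The table covers RNA-seq of LSKs (Lin- Sca-1+ c-Kit+ cells), the bone marrow fraction that holds hematopoietic stem and multipotent progenitor cells. The 4 groups of 3 libraries are untreated wild type (Tespa1+/+) LSKs, untreated Tespa1-/- LSKs, and LSKs of each genotype taken 9 days after a single injection of 5-FU (5-fluorouracil), a drug that kills dividing cells. The Tespa1-/- mice carry a targeted germline allele on a C57BL/6 background (more than 6 generations of backcrossing), so all cells of the animal and not LSKs alone had the allele, and the wild type mice were littermates. Mice were male and 8 to 10 weeks old. How many mice stood behind a library is not given in the sources used here, so the spread between libraries may be partly technical.

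RNase P is the ribozyme that cuts the 5′ leader from precursor tRNAs, with Rpph1 RNA as its catalytic core. RNase MRP, built on Rmrp RNA and sharing most of its protein subunits with RNase P, takes part in ribosomal RNA processing. The 7SK RNA, Rn7sk, holds the elongation factor P-TEFb in an inactive particle with Hexim proteins, and thereby sets how much P-TEFb is free to release paused RNA polymerase II. The 7SL RNA, Rn7s1 and Rn7s2, is the scaffold of the signal recognition particle, which brings ribosomes that make secreted or membrane proteins to the endoplasmic reticulum. All are made by RNA polymerase III and normally carry no poly-A tail, whereas these libraries were prepared from poly-A selected RNA with random primers, so a level here is what passed that selection and not the amount in the cell.

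Several of these genes share sequence, which decides how reads can be assigned to them. In the GENCODE M21 annotation of GRCm38, whose positions equal those in the deposited table for all 7 genes, Rpph1 lies at chr14:50807449-50807767 on the minus strand and Rprl3, annotated as a ribozyme gene related to it, at chr8:3803069-3803358 on the minus strand. Of the bases aligned between them, 89.6% were identical, the longest run in common was 37 bases and the first 13 bases were the same. The transcripts are printed 5′ to 3′ because they show where a read could tell the pair apart, with bases inside runs of at least 20 shared with the other gene in capitals and the first 300 of 319 bases for Rpph1.
Rpph1: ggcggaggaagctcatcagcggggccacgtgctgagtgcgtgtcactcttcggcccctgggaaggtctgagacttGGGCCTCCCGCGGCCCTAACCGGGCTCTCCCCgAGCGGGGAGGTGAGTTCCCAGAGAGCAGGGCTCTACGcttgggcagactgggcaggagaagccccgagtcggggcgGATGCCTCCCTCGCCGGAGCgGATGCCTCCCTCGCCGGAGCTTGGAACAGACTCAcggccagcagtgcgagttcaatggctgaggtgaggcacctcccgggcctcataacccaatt
Rprl3: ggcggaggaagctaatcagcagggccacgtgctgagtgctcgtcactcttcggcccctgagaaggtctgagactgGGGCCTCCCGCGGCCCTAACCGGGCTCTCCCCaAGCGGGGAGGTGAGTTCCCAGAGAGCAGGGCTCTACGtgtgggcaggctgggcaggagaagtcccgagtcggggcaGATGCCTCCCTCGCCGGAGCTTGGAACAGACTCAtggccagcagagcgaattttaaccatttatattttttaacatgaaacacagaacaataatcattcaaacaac
The capitals fell in the middle of both RNAs, and the last stretch of Rprl3 had no run of that length in common with Rpph1. Of the 241 windows of 50 bases in Rprl3, 234 (97.1%) were in no other annotated transcript and the remaining 7 were also in Rprl2, while all 191 windows of 100 bases were its own.

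Rn7sk (chr9:78175303-78175633, minus strand) and Gm24447 (chr15:93234363-93234700, plus strand) began with the same 241 bases and differed after them. Their first 300 of 331 and 338 bases are shown to mark that point, capitals again standing for runs shared between them.
Rn7sk: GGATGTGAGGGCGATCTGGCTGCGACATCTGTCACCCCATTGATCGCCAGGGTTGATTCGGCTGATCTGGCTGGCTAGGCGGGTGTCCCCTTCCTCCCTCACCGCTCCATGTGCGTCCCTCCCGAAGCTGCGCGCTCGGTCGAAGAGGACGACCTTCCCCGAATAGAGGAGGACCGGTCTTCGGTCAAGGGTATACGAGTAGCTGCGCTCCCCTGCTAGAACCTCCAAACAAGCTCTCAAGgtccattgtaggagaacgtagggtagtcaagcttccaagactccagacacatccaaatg
Gm24447: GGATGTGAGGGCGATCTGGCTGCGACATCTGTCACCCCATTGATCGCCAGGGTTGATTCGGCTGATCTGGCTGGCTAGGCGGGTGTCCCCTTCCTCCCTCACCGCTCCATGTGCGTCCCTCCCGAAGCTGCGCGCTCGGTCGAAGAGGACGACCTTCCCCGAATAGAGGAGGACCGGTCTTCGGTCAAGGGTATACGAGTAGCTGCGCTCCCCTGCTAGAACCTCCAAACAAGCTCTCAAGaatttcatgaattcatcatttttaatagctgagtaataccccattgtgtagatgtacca
Only 31.9% of the 50-base windows of Rn7sk and 33.6% of those of Gm24447 were in no other annotated transcript, all of them reaching into the 3′ part. The 7SL genes Rn7s1 (chr12:69159295-69159594, plus strand) and Rn7s2 (chr12:69361182-69361481, minus strand) were identical over all 300 bases. No window of 50 bases was particular to either 7SL gene. Rmrp (chr4:43492788-43493058, minus strand) also had no window of its own, because a lincRNA gene model, AL732506.1, covers its whole length on the same strand and an exon of Ccdc107 covers 124 of its 271 bases on the opposite strand. Ccdc107 was at 8.77 to 12.4 mean CPM and AL732506.1 at 28 to 50 counts in each library.

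Total counts ranged from 22118154 to 28275079 per library, and 3 counts, used as the lowest level that can be told from 0, stood for 0.107 to 0.136 CPM (counts per 1000000 after TMM scaling). Together the 7 genes took 2.76 to 3.04% of all counts in untreated Tespa1+/+ LSKs, and 4.40 to 4.58% in untreated Tespa1-/- LSKs. After 5-FU their share was 4.29 to 4.53% in Tespa1+/+ and 3.80 to 4.03% in Tespa1-/- LSKs. Tespa1 itself, counted over the whole gene, was lower in Tespa1-/- LSKs both untreated (log2 fold change -0.42, SE 0.09, edgeR quasi-likelihood adjusted p = 0.0316, and 0.0601 to 0.14 in 5 of the 6 fits without a library) and after 5-FU (-1.47, SE 0.12, adjusted p = 9.38e-05). Summed levels of 9 LSK markers were 1669 to 1763 and 1399.7 to 1450.1 CPM in the untreated Tespa1+/+ and Tespa1-/- groups and 1419 to 1486 and 861 to 944 CPM in the same genotypes after 5-FU, and none was at 0 in a group. After 5-FU, 10 neutrophil markers summed to 3.66 to 8.42 CPM in Tespa1+/+ and 1057.6 to 1060.1 CPM in Tespa1-/- LSKs, with Cd177, Retnlg and Fcnb at 0 in the former group, and 9 erythroid markers to 37.7 to 49.7 and 463 to 471 CPM. All 10 neutrophil and 9 erythroid markers were called higher there, and 0 of 6 B cell, 2 of 6 macrophage and 1 of 3 tested T cell markers. Of the 9 LSK markers, 6 were called lower and 0 higher, where 6.98% of all genes were called in either direction. Untreated, the neutrophil sums were 0.77 to 1.60 CPM in Tespa1+/+ and 4.70 to 5.85 CPM in Tespa1-/- LSKs and the erythroid sums 19.2 to 26.3 and 40.1 to 49.6 CPM. Of 6 B cell markers, the sums were 34.3 to 41.1 and 27.2 to 30.4 CPM untreated and 103 to 125 and 133 to 148 CPM after 5-FU, and those of 6 macrophage markers 4.44 to 6.84 and 4.66 to 7.29 CPM, then 4.58 to 7.33 and 23.1 to 29.2 CPM. The 4 T cell markers summed to at most 6.97 CPM in any library. Their part in any value below was not tested, and in such bulk samples fewer cells of a type and less RNA per cell cannot be told apart.

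Rpph1 was at 4412, 3764 and 4709 CPM in the 3 untreated Tespa1+/+ libraries and at 8935, 7842 and 7531 CPM in the 3 untreated Tespa1-/- libraries. After 5-FU, it was at 11770.2, 10990.4 and 13227 CPM in Tespa1+/+ and at 11984, 11815 and 9640 CPM in Tespa1-/- LSKs. All Tespa1-/- values were thus above the Tespa1+/+ values before treatment, whereas the genotypes overlapped after it, and both 5-FU groups lay above both untreated groups.

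Rprl3 followed another pattern. Untreated Tespa1+/+ libraries had 716, 593 and 664 CPM and untreated Tespa1-/- libraries 627, 631 and 588 CPM, with overlapping groups. In Tespa1+/+ LSKs after 5-FU, the 3 values of 340.04, 303 and 312 CPM lay below all untreated libraries. Tespa1-/- LSKs after 5-FU held 1, 2 and 0 counts, at or below the limit of 3 counts in every library. Set against that limit in the shallowest of the 3 libraries, Rprl3 in this group was at least 4546-fold lower than in untreated Tespa1-/- LSKs. Among all 53465 genes, Rprl3 was the 1 gene that combined, after 5-FU, at least 100 CPM in each Tespa1+/+ library with no more than 3 counts in any Tespa1-/- library, and it was also the 1 gene when the minimum was lowered to 10 CPM. In the opposite direction, 8 genes met the minimum of 10 CPM, among them the granulocyte genes Camp, Cd177 and Ear2, and no gene met 100 CPM. The count of 1 describes the gene that was picked for this difference. Its 2 named relatives were close to absent everywhere, with at most 1 count for Rprl1 and 5 for Rprl2 in any library.

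Rmrp was at 611, 512 and 572 CPM in the untreated Tespa1+/+ group and at 818, 807 and 918 CPM in that of Tespa1-/-. After 5-FU, Tespa1+/+ libraries had 776, 838 and 817 CPM and Tespa1-/- libraries 678, 803 and 836 CPM. The untreated Tespa1+/+ libraries were the low group, and the other 3 groups overlapped one another.

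Rn7sk was at 4799, 4231 and 4373 CPM in untreated Tespa1+/+ and at 5984, 5936 and 5915 CPM in untreated Tespa1-/- LSKs. The order of the genotypes was the opposite after 5-FU, with 6043, 6018 and 5821 CPM in Tespa1+/+ and 4479.7, 4867 and 4566 CPM in Tespa1-/-. Gm24447 behaved alike, at 2060.2, 1841 and 2015 against 2631, 2703 and 2663 CPM untreated, and at 2981, 2896 and 2821 against 2321, 2316 and 2309 CPM after 5-FU, Tespa1+/+ first. For both genes, the groups of the 2 genotypes did not overlap under either condition.

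Rn7s1 was the most abundant of the genes in every library, at 12030.5, 11477 and 12508 CPM in untreated Tespa1+/+ and 18107, 17645 and 18867 CPM in untreated Tespa1-/- LSKs. Its values after 5-FU were 15075, 13946 and 14498 CPM in Tespa1+/+ and 13894, 13624 and 13742 CPM in Tespa1-/-. Rn7s2 was at 5924, 5532 and 6096 CPM in untreated Tespa1+/+ and at 8856, 8603 and 8953 CPM in untreated Tespa1-/-, then at 7292, 6946 and 6804 CPM in Tespa1+/+ and 6981, 7077 and 6867 CPM in Tespa1-/- after 5-FU. The untreated Tespa1-/- libraries were the high group of both genes.

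**Figure D1:**
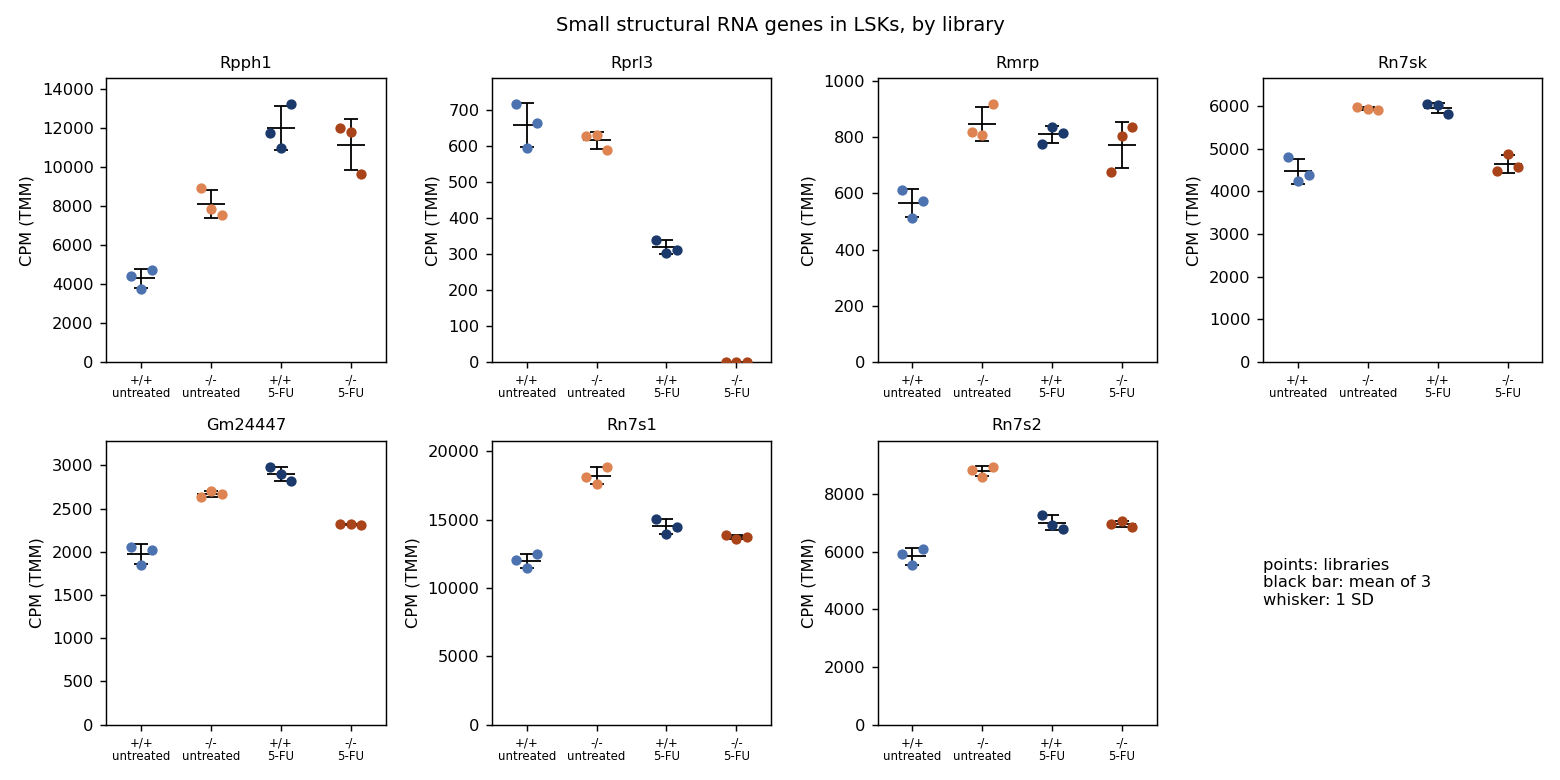
Level of each gene in TMM-scaled counts per 1000000 (CPM, linear axes from 0) in the 12 libraries, with the mean of 3 libraries and 1 SD per group. Untreated Tespa1-/- libraries lie above untreated Tespa1+/+ libraries for all genes but Rprl3, and Rprl3 is at 0 to 2 counts in the Tespa1-/- libraries after 5-FU.

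Levels of different genes were compared as CPM per kilobase of gene length. In untreated Tespa1+/+ LSKs the order was Rn7s1 with 40017 ± 1721 (SD, n = 3) CPM per kb, Rn7s2 with 19502 ± 965, Rn7sk with 13498 ± 893, Rpph1 with 13465 ± 1514, Gm24447 with 5834 ± 342, Rprl3 with 2269 ± 212 and Rmrp with 2085 ± 183. Rn7sk and Rpph1 differed by less than their SDs, and Rprl3 and Rmrp by less than the SD of Rprl3 and about that of Rmrp. After 5-FU, Rpph1 was in second place in both genotypes. It had 37605 CPM per kb in Tespa1+/+ LSKs, against 48354 for Rn7s1 and 23379.8 for Rn7s2, and 34941 ± 4098 in Tespa1-/- LSKs, against 45844 ± 451 for Rn7s1 and 23250.0 for Rn7s2. Rprl3 was last in Tespa1-/- LSKs after 5-FU, with 0.131 ± 0.134. The values of Rn7s1 with Rn7s2 and of Rn7sk with Gm24447 depend on how shared reads were divided, so their separate ranks are uncertain.

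The fit of genotype in untreated LSKs asked what loss of Tespa1 changed without stress. Rpph1 differed most among the 7 genes, by a log2 fold change (Tespa1-/- over Tespa1+/+) of 0.92 (SE 0.08). The 7SL genes Rn7s1 and Rn7s2 were higher by 0.60 (SE 0.03) and 0.59 (SE 0.03), Rmrp by 0.59 (SE 0.07), and Rn7sk and Gm24447 by 0.41 (SE 0.04) and 0.44 (SE 0.04). Rprl3 differed by -0.10 (SE 0.07), about its error. All 7 genes passed the filter on low counts in each comparison. By the call rule, an adjusted p below 0.05 together with more than 1.5-fold change, which called 2.51% of the 17055 genes tested, 4 of the 7 were called (Rpph1, Rmrp, Rn7s1 and Rn7s2). Rmrp and Rn7s2 stood just inside the fold limit with folds of 1.501 and 1.51 and Rn7s1 at 1.52, and Gm24447 and Rn7sk outside it with 1.35 and 1.33. The count fell to 1, Rpph1 alone, without Tespa1+/+ replicate 2 or without Tespa1-/- replicate 3. The groups did not overlap for 6 of the 7 genes, as for 25.6% of all genes tested.

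After 5-FU, the same genotype contrast was below 0 for all 7 genes. Rprl3 was at least 2352-fold lower in Tespa1-/- LSKs. Rn7sk was lower by a log2 fold change of -0.37 (SE 0.03) and Gm24447 by -0.33 (SE 0.02), both within the 1.5-fold limit. The other 4 differed little, with -0.11 (SE 0.08) for Rpph1, -0.08 (SE 0.02) for Rn7s1, -0.07 (SE 0.07) for Rmrp and -0.01 (SE 0.02) for Rn7s2, and the sign for Rmrp and Rn7s2 turned with a library left out. Called was 1 of 7 (Rprl3), with 6.98% of 17239 genes called, and the groups did not overlap for 4 of 7, with 33% among all genes.

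Within Tespa1+/+ LSKs, 5-FU against untreated gave the largest fold for Rpph1, with a log2 fold change of 1.48 (SE 0.08). Rprl3 was the 1 gene that was lower, by -1.05 (SE 0.07), so the ribozyme and its relative moved apart. The remaining genes were higher by 0.56 (SE 0.04) for Gm24447, 0.52 (SE 0.06) for Rmrp, 0.42 (SE 0.04) for Rn7sk, 0.27 (SE 0.03) for Rn7s1 and 0.26 (SE 0.04) for Rn7s2. Rpph1 and Rprl3 passed both thresholds, with 4.43% of 17002 genes called. The groups did not overlap for all 7, with 28.5% among all genes.

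Within Tespa1-/- LSKs the picture was another one. Rpph1 was again higher after 5-FU, by 0.45 (SE 0.09) on the log2 scale, and no other gene was. Rn7s1 was lower by -0.42 (SE 0.02), Rn7sk by -0.37 (SE 0.03), Rn7s2 by -0.35 (SE 0.02) and Gm24447 by -0.21 (SE 0.02), while Rmrp differed by -0.14 (SE 0.08) with overlapping groups. Only Rprl3 passed both thresholds among the 7, with 10.1% of 17228 genes called, and 6 of 7 had groups that did not overlap, with 38.5% among all genes.

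The difference of the genotype effects, that after 5-FU minus that in untreated LSKs, was negative for all 7 genes. It was -1.02 (SE 0.14) for Rpph1, -0.77 (SE 0.06) for Rn7sk, -0.76 (SE 0.05) for Gm24447, -0.68 (SE 0.05) for Rn7s1, -0.65 (SE 0.11) for Rmrp and -0.60 (SE 0.05) for Rn7s2 on the log2 scale. For Rprl3 it was at or below -11.1, with Tespa1-/- LSKs after 5-FU set to the limit of 3 counts. All 7 met the call rule, which 3.21% of 18696 genes did, and leaving out single libraries left 6 or 7. Each group enters a genotype contrast, a 5-FU contrast and this difference, so these share libraries and are not independent of one another. The signs of the 6 abundant genes are not separate observations either, since 2 pairs share reads.

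**Figure D2:**
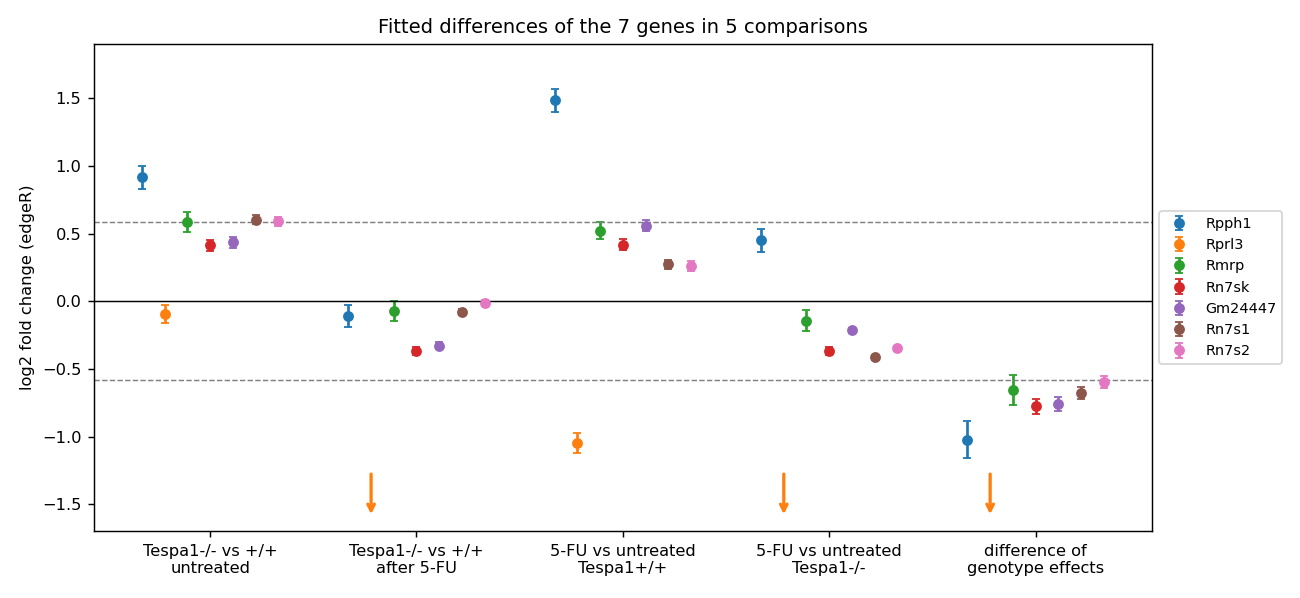
Log2 fold change of each gene from edgeR in the 4 comparisons and in their difference, with 1 SE. Dashed lines mark a fold of 1.5, and arrows stand for Rprl3 where Tespa1-/- LSKs after 5-FU held at most 2 counts and the value lies below the axis. Points for the other 6 genes lie above 0 in the first group and below 0 in the last.

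Pairs of related or overlapping genes were then set against each other within each library. Rn7s2 had 46.9 to 51.9 counts per 100 counts of Rn7s1 in all 12 libraries, with group medians of 48.7, 48.8, 48.4 and 50.2 in the order untreated Tespa1+/+, untreated Tespa1-/-, Tespa1+/+ after 5-FU and Tespa1-/- after 5-FU. As the 2 RNAs are identical, the ratio describes how reads were divided and not 2 levels. Gm24447 had 42.9 to 46.1 counts per 100 of Rn7sk in the untreated libraries and 47.6 to 51.8 in those after 5-FU, so this ratio was somewhat higher after treatment in both genotypes. Summed before the fit, Rn7sk with Gm24447 differed between genotypes by 0.42 (SE 0.04) untreated and -0.35 (SE 0.02) after 5-FU, and Rn7s1 with Rn7s2 by 0.60 (SE 0.03) and -0.06 (SE 0.02).

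Rprl3 per 100 counts of Rpph1 fell into 4 separate ranges. Untreated, it was 14.1 to 16.2 in Tespa1+/+ and 7.01 to 8.05 in Tespa1-/- LSKs. After 5-FU it was 2.36 to 2.89 and at most 0.000656, respectively. In the untreated groups the step came from Rpph1, since Rprl3 overlapped between genotypes. Added together, Rpph1 and Rprl3 were at 4953 ± 530 (SD, n = 3) and 8718 ± 752 CPM in the untreated Tespa1+/+ and Tespa1-/- groups, and at 12314 ± 1136 and 11146 ± 1307 CPM in those after 5-FU.

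Rpph1 overlaps an exon of the protein-coding gene Ccnb1ip1 (exon chr14:50807500-50807732, minus strand) by 233 of its 319 bases on the same strand. Ccnb1ip1 encodes an E3 ubiquitin ligase that acts on cyclin B. Its counts were all or none among libraries of one group. Untreated Tespa1+/+ libraries had 17463, 1 and 0 counts, untreated Tespa1-/- libraries 29, 23097 and 22682, Tespa1+/+ libraries after 5-FU 45262, 38407 and 55, and Tespa1-/- libraries after 5-FU 44401, 44438 and 25592. In the 8 libraries with more than 55 Ccnb1ip1 counts, it held 11.98 to 14.99 counts per 100 of Rpph1. In each of the 3 groups with such a split, the library with the highest Rpph1 level was one with at most 55 Ccnb1ip1 counts, though in untreated Tespa1+/+ LSKs the library with the lowest Rpph1 level, at 1 count, was too. The summed level of the pair had an SD of 2.53% of the mean in untreated Tespa1-/- LSKs, against 9.10% for Rpph1 alone, and of 4.19% against 9.46% in Tespa1+/+ LSKs after 5-FU, while in untreated Tespa1+/+ it was 14.7% against 11.2% and in Tespa1-/- after 5-FU 12.7% against 11.7%. With the pair summed before the fit, the genotype difference of Rpph1 was 0.96 (SE 0.09) untreated and -0.05 (SE 0.07) after 5-FU, close to the values without the sum. Parp2, whose gene starts 74 bases from Rpph1, was at 43.1, 47.0, 44.9 and 48.6 mean CPM in the 4 groups in the order above.

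**Figure D3:**
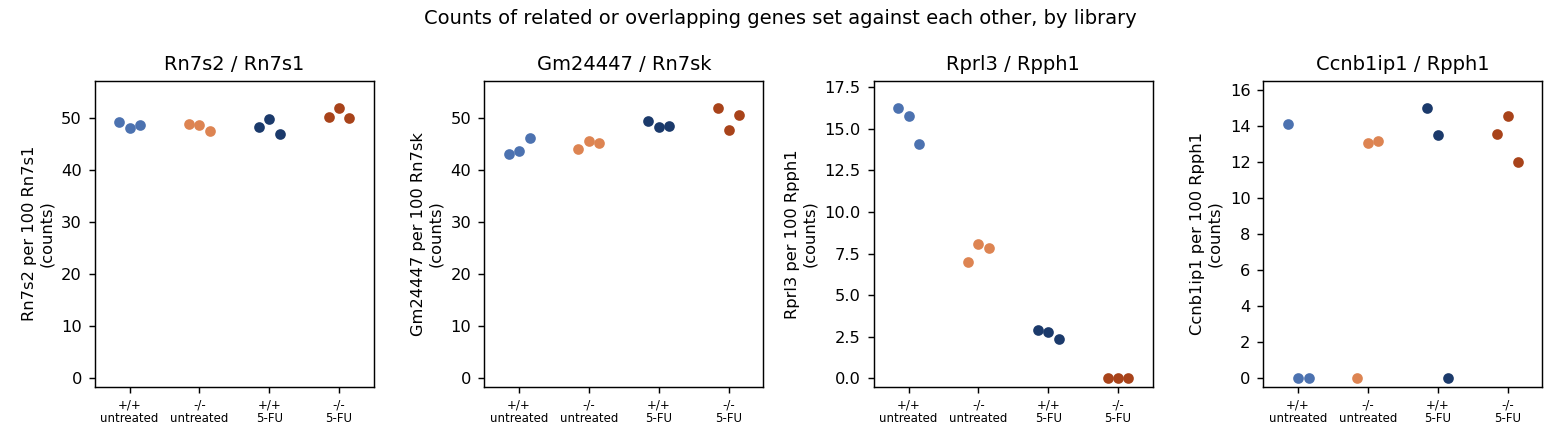
Counts of 1 gene per 100 counts of another in each of the 12 libraries. The 7SL and 7SK pairs stay within narrow ranges (46.9 to 51.9 and 42.9 to 51.8), Rprl3 against Rpph1 steps down over the 4 groups, and Ccnb1ip1 against Rpph1 is either at 11.98 to 14.99 or near 0.

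Rprl3 lies 21939 bases from the nearest gene of the table on one side and 38738 on the other, and these 2, Gm24934 and Gm7381, had at most 2 and 4 counts in any library. Next to Rn7sk are Ick, a kinase gene at 19.8 to 27.9 mean CPM, and the lincRNA C920006O11Rik, and next to Gm24447 are Gm4335 and Gxylt1, the latter at 53.6 to 68.5. Rn7s1 lies between Rps29 and Lrr1, and Rn7s2 between Nemf, at 109 to 115 mean CPM, and Gm18113. The miRNA gene models inside the 7SL genes (Gm47287, Gm47295, Gm47305 and Gm47299) held 1 count in each library, except for Gm47299 with 335 counts in a Tespa1+/+ library after 5-FU. Sit1 and Arhgef39 flank Rmrp, at up to 46 and 523 counts.

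Other small RNA genes were read by the same libraries. Of 360 further genes with names of this kind (small nuclear and nucleolar, Cajal body, vault, Y, telomerase, 5S and 7S RNAs), 123 could be tested between the untreated genotypes. There, 9 had an adjusted p below 0.05 (edgeR quasi-likelihood test), all higher in Tespa1-/-, where 5.23% of all genes passed, 1.64% as higher and 3.59% as lower. Of the 9, 5 passed the fold limit, and the median of the 123 was 0.24 on the log2 scale against 0.01 over all genes. After 5-FU, 1 of 120 was higher and 3 lower, with 7.34% and 5.78% of all genes (13.1% together), and the median was -0.15 against -0.01. In Tespa1-/- LSKs, 5-FU against untreated gave 4 higher and 15 lower of 123, with a median of -0.48, and in Tespa1+/+ LSKs 6 higher and 1 lower of 124, with a median of -0.13. Of all genes, 10.7% were higher and 8.64% lower (19.4% together) in Tespa1-/- LSKs, and 3.77% and 4.18% (7.95% together) in Tespa1+/+ LSKs. For the difference of genotype effects, 7 of 131 had an adjusted p below 0.05, all 7 negative, where 5.01% of all genes passed, 3.02% as positive and 1.99% as negative. Among the 7 was Rn7s6, with a log2 difference of -0.74. Rn7s6 shares a run of 173 bases with Rn7s1 and 91.2% of aligned bases, so the list is not free of reads that may be shared with the 7SL genes. The list had a median of -0.42 against -0.02 over all genes.

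The most abundant of them was Snord15b, a small nucleolar RNA, at 299.7 ± 16.5 (SD, n = 3) and 397 ± 39.0 CPM in the untreated Tespa1+/+ and Tespa1-/- groups, and at 267 ± 19.1 and 208 ± 12.2 CPM in those after 5-FU. It rose by 0.41 on the log2 scale with loss of Tespa1 before treatment (adjusted p = 0.0199, lost in 3 of 6 fits without a library, at up to 0.0715) and fell by 0.36 after it (adjusted p = 0.00821), and the difference of -0.76 passed its own test (adjusted p = 0.00109). Snord17 had the same signs, 0.52 and -0.40, with adjusted p = 0.00987 and 0.0456, the latter lost without each of the 6 libraries (0.061 to 0.136), and a difference of -0.91 (adjusted p = 0.00197). Snord15a rose by 0.63 untreated (adjusted p = 0.0101, and 0.055 without Tespa1-/- replicate 3), differed by -0.32 after 5-FU (adjusted p = 0.14) and gave a difference of -0.95 (adjusted p = 0.00712). For Scarna13, a Cajal body RNA, the difference was -0.58 (adjusted p = 0.0048). The adjusted p of the difference stayed below 0.05 for these 4 genes in all 12 fits without a library, and Scarna13 was within the 1.5-fold limit. Scarna10, also a Cajal body RNA, was at 7.33 CPM in Tespa1+/+ untreated replicate 2 and at 95.4 and 94.6 CPM in the other two libraries of that group. Its difference was -1.54 (adjusted p = 0.31) with that library and -1.01 (adjusted p = 0.00168) without it, and after 5-FU it fell by 0.61 with loss of Tespa1 (adjusted p = 0.00547, but 0.529 in 1 fit of all 12 libraries, which includes the low one).

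For 4 others of the most abundant small RNAs the difference was also negative but did not pass the test. Rnu3b4, a U3 RNA gene, was at 78.1 ± 5.29 (SD, n = 3), 107 ± 9.34, 119 ± 4.75 and 141 ± 13.7 CPM in the groups in the order given for Snord15b, and rose by 0.45 untreated with loss of Tespa1 (adjusted p = 0.0205, and 0.0547 to 0.0832 in 5 of the 6 fits without a library). Its difference of genotype effects was -0.20 (adjusted p = 0.41). Rnu3a had a difference of -0.26 (adjusted p = 0.451), Scarna2 of -0.09 (adjusted p = 0.732) and Snord22 of -0.27 (adjusted p = 0.582). The 5S RNA gene n-R5s193 had 571 CPM in an untreated Tespa1-/- library, 551 in a Tespa1+/+ library after 5-FU and no count in the other 10 libraries.

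Other gene classes were summed and set beside the sum of the 7 genes. Annotated snRNA genes (1385) summed to 1270.0 ± 114 (SD, n = 3) and 1891 ± 113 CPM in the untreated Tespa1+/+ and Tespa1-/- groups, and to 2379.7 ± 246 and 1789.8 ± 126 CPM in those after 5-FU. As a ratio of means, Tespa1-/- was 1.49 times Tespa1+/+ untreated and 0.752 times after 5-FU, where the 7 genes gave 1.52 and 0.91. Annotated snoRNA genes gave 1.29 and 0.854. Replication-dependent histone genes, whose mRNAs lack a poly-A tail as the 7 RNAs normally do, gave 1.32 and 1.34, so their order did not turn after 5-FU. The 2 mitochondrial ribosomal RNAs, the most abundant class at 77103.5 to 88810.5 mean CPM over the groups, gave 0.959 and 0.919. Between treatments the classes parted. After 5-FU against untreated, the 7 genes gave 1.46 in Tespa1+/+ and 0.876 in Tespa1-/- LSKs, the snRNA genes 1.87 and 0.947, the snoRNA genes 1.06 and 0.698, and the histone genes 1.22 and 1.23. What part the efficiency of poly-A selection had in these levels was not tested.

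**Figure D4:**
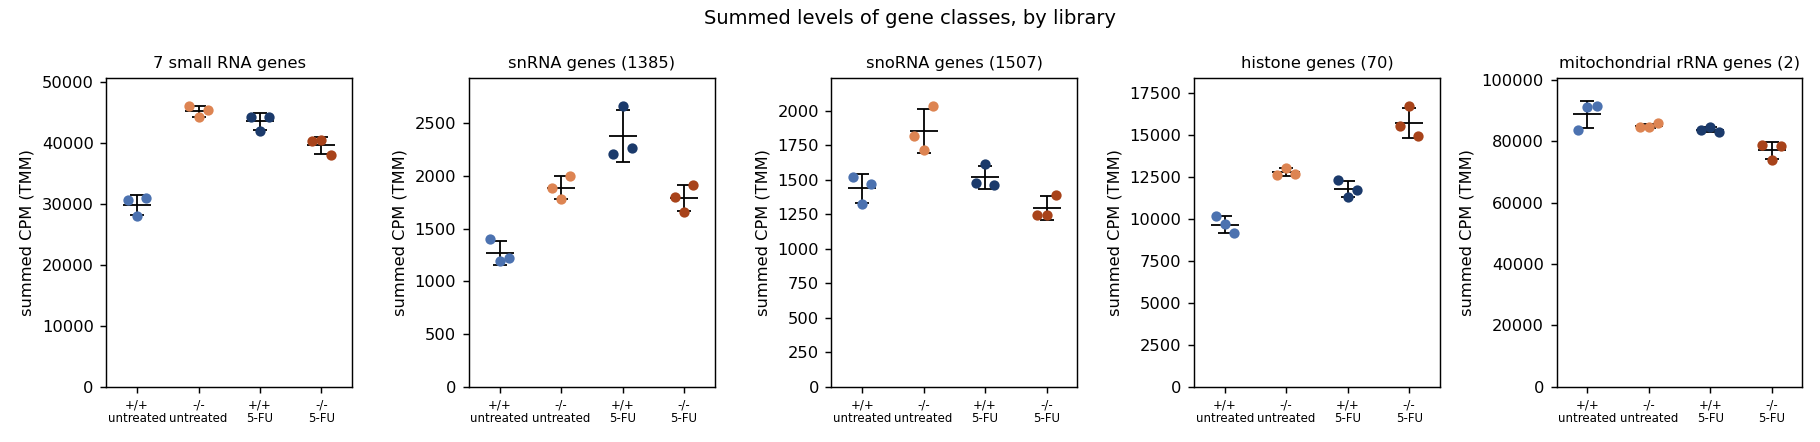
Summed level of the 7 genes and of 4 gene classes in TMM-scaled counts per 1000000 (linear axes from 0) in the 12 libraries, with the mean of 3 and 1 SD. The snRNA sum has the same order of genotypes as the 7 genes under both conditions (1.49 times and 0.752 times), while the histone sum is higher in Tespa1-/- under both.

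The protein partners of these RNAs were then examined list by list. Of the 11 RNase P and RNase MRP proteins, 11 were tested untreated and 10 after 5-FU, and none had an adjusted p below 0.05 between genotypes, with 1 and 3 at an unadjusted p below 0.05, as for 18.5% and 26.7% of all genes, and medians of 0.20 and 0.15 on the log2 scale. The most abundant, Pop4, was at 21.5 to 27.2 mean CPM and differed by -0.20 (SE 0.15) untreated and -0.02 (SE 0.14) after 5-FU. Rpp38, a subunit of both enzymes, was at 1.93, 1.82 and 1.58 CPM against 3.42, 3.42 and 5.07 CPM in the untreated libraries, Tespa1+/+ first, and at 3.47, 3.08 and 3.47 against 2.67, 1.86 and 2.53 CPM in those after 5-FU. Its difference of genotype effects, -1.66 (SE 0.39), passed the test (adjusted p = 0.028), but not with any of 8 of the 12 libraries left out (adjusted p = 0.0517 to 0.0934).

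Among 7 proteins of the 7SK particle and P-TEFb, 2 were lower in untreated Tespa1-/- LSKs and 1 after 5-FU by adjusted p, as were 3.59% and 5.78% of all genes, none by 1.5-fold. Hexim1, which inhibits P-TEFb when bound to 7SK RNA, was at 143, 122 and 123 CPM in untreated Tespa1+/+ and at 99.6, 101.8 and 92.5 CPM in untreated Tespa1-/- LSKs. It fell by 0.40 on the log2 scale (SE 0.08, adjusted p = 0.0251), and the adjusted p was 0.0868 to 0.112 without each Tespa1-/- library in turn. Larp7, which binds the 3′ end of 7SK RNA, fell by 0.30 (SE 0.06, adjusted p = 0.0348), which did not hold with any of 5 of the 6 libraries left out (adjusted p = 0.0773 to 0.147). Ccnt1, cyclin T1 of P-TEFb, fell by 0.41 after 5-FU (SE 0.07, adjusted p = 0.00546), at 83.0 to 88.6 CPM in Tespa1-/- against 107 to 121 CPM in Tespa1+/+.

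Hexim1 was also lower after 5-FU in both genotypes. In Tespa1+/+ LSKs it fell by 1.04 (SE 0.09, adjusted p = 0.000189), to 59.1, 66.8 and 63.1 CPM, and in Tespa1-/- LSKs by 0.45 (SE 0.09, adjusted p = 0.0107), to 80.6, 74.1 and 62.4 CPM. Ccnt1 fell by 0.38 with 5-FU in Tespa1-/- LSKs (SE 0.07, adjusted p = 0.00408), and differed by -0.11 (SE 0.11) in Tespa1+/+ LSKs. For Hexim1, the difference of the 2 effects was 0.60 (SE 0.14, adjusted p = 0.0224), with adjusted p = 0.0507 to 0.0647 in 7 of 12 fits without a library. Its sign was opposite to that of Rn7sk, which was -0.77.

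No protein of the signal recognition particle or its receptor (10 of 11 listed were in the table) had an adjusted p below 0.05 between genotypes, with 1 and 0 of 10 at an unadjusted p below 0.05, where 5.23% and 13.1% of all genes passed by adjusted p and 18.5% and 26.7% by unadjusted p. Srp68, the most abundant, differed by 0.09 (SE 0.07) untreated and 0.16 (SE 0.09) after 5-FU. Srp19 rose in Tespa1-/- LSKs with 5-FU by 0.55 (SE 0.13, adjusted p = 0.0187), within the 1.5-fold limit and with an adjusted p of 0.0547 to 0.0696 in 5 of 6 fits without a library. The 33 genes of RNA polymerase III and its factors had medians of 0.05 untreated and -0.01 after 5-FU between genotypes, and 0 and 1 with an adjusted p below 0.05, set against the same 5.23% and 13.1%. That 1 was Gtf3c6, a subunit of the factor TFIIIC, which fell by 0.40 (SE 0.10, adjusted p = 0.0328), within the 1.5-fold limit and with an adjusted p of 0.0601 to 0.109 in 5 of the 6 fits without a library. Ssb, the La protein that binds the 3′ ends of new RNA polymerase III transcripts, was the most abundant and differed by -0.07 (SE 0.05) untreated and -0.01 (SE 0.07) after 5-FU. With 5-FU in Tespa1-/- LSKs, Brf2, the initiation factor for promoters of the 7SK type, fell by 0.61 (SE 0.18, adjusted p = 0.0422) and Polr3c, a polymerase subunit, rose by 0.33 (SE 0.09, adjusted p = 0.0258). Gtf3c6 also fell there, by 0.28 (SE 0.08, adjusted p = 0.0295, and 0.0542 to 0.11 without each of the 6 libraries), so that 2 of 33 were lower and 1 higher, with 8.64% and 10.7% of all genes. Without single libraries, the adjusted p rose to 0.0586 to 0.162 for Brf2 without each of the 6 libraries and to 0.0534 to 0.103 for Polr3c without 4 of them.

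**Figure D5:**
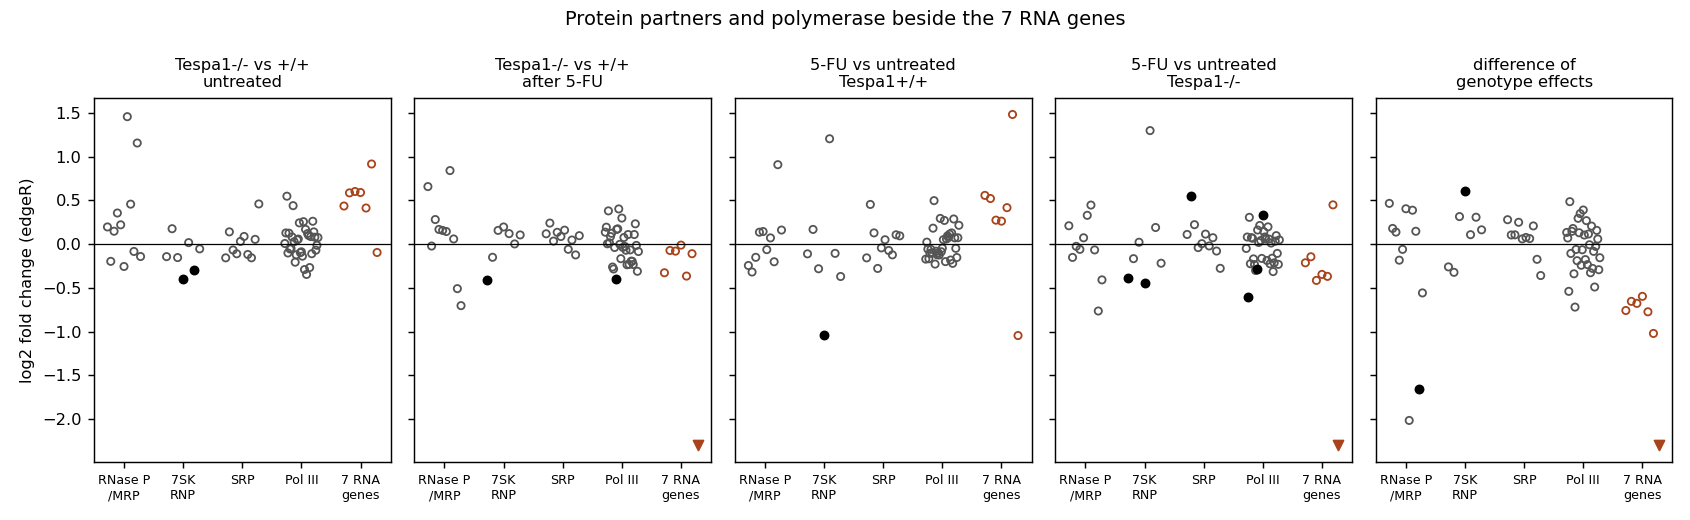
Log2 fold change from edgeR of the genes of 4 partner lists beside the 7 RNA genes, 1 panel for each comparison. Filled black points have an adjusted p below 0.05, open points do not or, for the 7 RNA genes, carry no test, and triangles stand for Rprl3 below the axis. In untreated LSKs, 6 of the 7 RNA genes lie between 0.41 and 0.92, while the medians of the RNase P and RNA polymerase III lists are 0.20 and 0.05.

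The genes whose pattern over the 12 libraries was most like that of each member were found by Pearson's r of log2(CPM + 1) among 14934 genes with a mean of at least 1 CPM. As the libraries form 4 groups, a high r largely repeats the order of the group means. Nearest to Rpph1 were AC149090.1 (r = 0.956), Ffar2 (r = 0.950) and the U1 RNA gene Rnu1b6 (r = 0.949). Nearest to Rmrp were the snRNA genes Gm25939 (r = 0.960) and Gm24265 (r = 0.924) and the gene Gm9008 (r = 0.918), and nearest to Rn7sk the snoRNA gene Gm26448 (r = 0.941), Gm24447 (r = 0.921) and the snRNA gene Gm22634 (r = 0.892). Gm24447 was most like the snRNA gene Gm26444 (r = 0.970), the antisense RNA Kcnq1ot1 (r = 0.965) and Txnip (r = 0.961). Rn7s1 and Rn7s2 were each other's nearest (r = 0.986), followed by Gm37534 (r = 0.925) and Ppcs (r = 0.920) for Rn7s1 and by Ppcs (r = 0.930) and Zfp990 (r = 0.914) for Rn7s2. Rprl3 was most like Elf1 (r = 0.985), Afap1l1 (r = 0.983) and Calcrl (r = 0.971). Those 3 kept 266, 64.5 and 51.3 mean CPM in Tespa1-/- LSKs after 5-FU, from 366, 107 and 115 CPM in Tespa1+/+, so what they share with Rprl3 is the group that was lowest and not the size of the step. Between members, r was 0.70 to 0.84 for Rmrp with the 7SK and 7SL genes and for Gm24447 with the 7SL genes, and -0.49 for Rprl3 with Rpph1.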

How the data were processed

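Poly-A selected RNA of LSKs was made into stranded paired-end libraries with random primers and sequenced on an Illumina NovaSeq. The submitters' processing notes name CASAVA 1.8, HISAT2, StringTie, edgeR and the build GRCm38. How multi-mapping reads were treated and whether counting used strand are not given in the sources used here. The authors deposited raw counts per gene, which are the values analysed here, and FPKM, which were read only to check gene lengths (counts and FPKM together gave the annotated length for all 7 genes). The limit of 3 counts covers counting error only. Nothing in the sources says that libraries of a group came from separate mice, so p-values measure the spread between these libraries. Of the replicate pairs in each group, all differed by more than sampling noise (median chi-square per gene 2.28 to 6.18).

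The members and the lists were chosen with earlier results of these data known. Genes were filtered with filterByExpr (minimum count 10), scaled by TMM and fitted over all genes with edgeR 4.0.16 in R 4.3.3 (glmQLFit and glmQLFTest, Benjamini-Hochberg adjustment). Each comparison used the 6 libraries of its 2 groups, and the difference of genotype effects used all 12. CPM of single libraries were scaled over all 12. On simulated counts with 200 genes changed 2-fold, edgeR found 98% (untreated genotypes, 17158 genes), 99% (genotypes after 5-FU, 17380 genes) and 91.5% (difference of genotype effects, 17703 genes), with 1, 3 and 8 false calls, and DESeq2 found 96.5%, 98% and 85.5% of the same genes.

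The genes named were the 7 members, Tespa1, in each partner list up to 3 genes with the largest change among those with an adjusted p below 0.05 between genotypes and the most abundant gene, the 10 most abundant other small RNA genes, the 3 genes most like each member, and overlapping or nearest genes. Rpp38, Srp19, Brf2, Polr3c, Camp, Cd177, Ear2, Rprl1, Rprl2 and Rn7s6 fall outside this rule and were named after their values were seen. The limits of 10 and 100 CPM and the summed gene classes were also set then. Sequences and windows came from GENCODE M21 transcripts, read with Biopython 1.88, and that of the 7SL genes is not reported here. Alternatives were DESeq2 1.42.0, RLE size factors, library totals, other filters and fold limits, a replicate block, 1 fit of all libraries, leaving out each library and, added after seeing the data, summed counts of genes that share reads.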

Additional observations from a re-analysis of the deposited data

Results flagged for a closer look

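The genotype difference after 5-FU was set against that in untreated LSKs for each named gene, and the difference itself was fitted in the interaction model. For the 7 RNA genes this is a description, since they were chosen with such results known. The values on the log2 scale were -1.02 for Rpph1, -0.65 for Rmrp, -0.77 for Rn7sk, -0.76 for Gm24447, -0.68 for Rn7s1, -0.60 for Rn7s2 and at or below -11.1 for Rprl3, whose Tespa1-/- libraries after 5-FU held at most 2 counts. Among other small RNA genes, the difference was -0.58 for Scarna13, -0.95 for Snord15a, -0.76 for Snord15b and -0.91 for Snord17 (edgeR adjusted p = 0.0048, 0.00712, 0.00109 and 0.00197). Among the protein partners it was 0.60 for Hexim1 and -1.66 for Rpp38 (edgeR adjusted p = 0.0224 and 0.028), both lost in more than 6 of the 12 fits that left out a library (adjusted p = 0.0507 to 0.0647 in 7 and 0.0517 to 0.0934 in 8).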

How the results depend on the processing

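No called value changed sign under any alternative. In untreated LSKs, 428 genes were called between genotypes, with 256 under the replicate block, 892 with no fold limit, 213 at more than 2-fold and 216 to 411 without single libraries (224, 216 and 218 without Tespa1-/- replicate 1, 2 or 3). Of the 7 RNA genes 4 were called, with 1 when no filter on low counts was used, 0 at 2-fold and 1 to 4 without single libraries, and of the partner genes 0, with 1 by DESeq2, 1 with at least 10 counts in every library, 1 in a fit of all 12 libraries and 2 with no fold limit. After 5-FU, 1204 genes became 2261 with no fold limit and 635 at 2-fold, the 1 RNA gene became 3 with no fold limit and 0 with at least 10 counts in every library, which removes Rprl3 by construction, and the 0 partner genes became 2 by DESeq2, 2 with all 12 libraries, 2 with no fold limit and 0 to 1 without single libraries. For 5-FU in Tespa1+/+ LSKs, 753 genes became 1352 with no fold limit and 439 at 2-fold, and 2 RNA genes became 7 with no fold limit. For 5-FU in Tespa1-/- LSKs, 1735 genes became 3338 and 1043, the 1 RNA gene became 6 with no fold limit and 0 with at least 10 counts, and the 1 partner gene became 6 with no fold limit and 0 at 2-fold, with no filter, with all 12 libraries, with the replicate block, and in some fits without a library (0 to 1). For the difference of genotype effects, 601 genes became 964 by DESeq2, 936 with no fold limit and 349 at 2-fold, 7 RNA genes became 2 at 2-fold, and 2 partner genes became 1 with library totals, 1 with no filter, 1 with at least 10 counts, 1 at 2-fold and 0 to 2 without single libraries. Beyond these settings, the counts stayed within 1.5 times. Unless stated, the cause of these moves was not tested.

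The replicate numbers of the labels did not pair the libraries. Correlations of deviations from the group means were -0.04 to 0.03 between same-numbered libraries, and no more than 1 of 3 correlated best with its own number. The replicate block gave 256, 1010, 578, 1516 and 491 genes in the order of comparisons above.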

Other observations

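Ccnb1ip1 was not alone in being abundant in some libraries and near absent in others. In the whole table, 12 genes had at least 100 CPM in a library and at most 3 counts in another. In 11 of them at least 1 group held libraries on both sides of the 3-count limit, and by this limit Rprl3 was the exception. Its counts were at or under 3 in all 3 libraries of Tespa1-/- LSKs after 5-FU and above 3 in all others. The limit split the neutrophil, eosinophil and erythroid genes Ngp, S100a8, S100a9, Ltf, Epx, Prg2 and Slc4a1 only among low values. These ranged from 0 to 65 and lay outside Tespa1-/- LSKs after 5-FU. That group was uniformly high for them, at 2037 to 10631 per library, so these genes also followed the groups. Besides them and n-R5s193, the list held Alb. It was at 985 and 2566 counts in 2 untreated Tespa1+/+ libraries and 949 in an untreated Tespa1-/- library but at most 12 elsewhere. Hist2h3c1, a histone H3 gene, had 2834, 8389 and 2 counts in the 3 untreated Tespa1-/- libraries, and 2532, 4 and 4831 in those of Tespa1+/+ after 5-FU. These genes were picked after their values were seen.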
